A study of Mus musculus with 2 samples.

Results

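miR-210 is the microRNA that mammalian cells make in larger amounts when oxygen is low. It was examined here in small RNA of fetal mouse liver from mice with a catalytically inactive Argonaute 2 (genotype Ago2ADH) and from wild type mice, both of strain B6/129 at stage E18.5. Its reads were the deposited sequences of the miRNA class named mmu-mir-210. They comprised 50 of the 12128 distinct miRNA sequences, under 1 of 417 miRNA names, and numbered 9486 in Ago2ADH and 4579 in wild type. Each genotype was sequenced once, which leaves every difference without a replicate check and without a p-value. The number of fetuses per library is not stated in the labels. mmu-mir-210 was chosen by its read counts in these same libraries, so its overall level is given as a description.

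Transcription of the miR-210 gene is driven by the hypoxia-inducible factors, which are degraded while oxygen is plentiful. The Drosha and Dicer nucleases cut a hairpin precursor into a duplex of a 5p and a 3p strand, and the 3p strand is the one that Argonaute proteins keep as guide. Known targets of miR-210-3p in human and mouse cells include the iron-sulphur cluster scaffold Iscu and the membrane ligand Efna3, and in red cell precursors the miRNA is known to increase during maturation. Argonaute 2 is the mammalian Argonaute with clear slicing activity, which Ago2ADH lacks. Late fetal liver is both a hepatocyte organ and a site where red cells form.

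Mir210 lies on the minus strand of chromosome 7 (GRCm38, chr7:141221384-141221493). No other GENCODE gene overlaps the hairpin; the nearest ones are Rassf7, 2725 nt away on one side, and Phrf1, 7290 nt away on the other. The RefSeq hairpin of 110 nt (GRCm38.p6) is shown with both mature strands in capitals, because all read positions below are counted along it, followed by the mature strands with the seed (bases 2 to 8) in capitals.
mir-210 hairpin: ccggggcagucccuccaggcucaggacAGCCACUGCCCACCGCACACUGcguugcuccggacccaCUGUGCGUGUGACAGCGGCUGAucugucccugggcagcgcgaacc
miR-210-5p: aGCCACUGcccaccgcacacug
miR-210-3p: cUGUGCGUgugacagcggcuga
The 5p strand covers hairpin positions 28 to 49 and the 3p strand positions 66 to 87, with 16 nt between them. In the fold of lowest energy predicted by RNAfold (-48 kcal/mol), 16 bases of the 3p strand pair with the 5p strand, and each strand has a 3′ overhang of 2 nt. Of the 1679 mature mouse miRNAs in the table, 0 others carry the seed UGUGCGU, so miR-210-3p has no seed family there.

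The libraries held 7046197 reads in Ago2ADH and 7599870 in wild type, of which 2811227 and 2808232 were miRNA reads. Counts are given raw and as RPM, reads per 1000000 miRNA reads, so that 3 reads are 1.07 RPM in either library. The mutation changes codons of Ago2 and does not remove the gene. Fragments of its mRNA, listed as Eif2c2, numbered 318 in Ago2ADH and 229 in wild type, which does not check the genotype. Liver identity was clear from fragments of albumin mRNA (Alb), with 36365 reads in Ago2ADH and 40362 in wild type.

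miR-210 was read almost entirely from the 3p strand. miR-210-3p had 9479 reads in Ago2ADH (3372 RPM) and 4572 in wild type (1628 RPM). This was 0.337% and 0.163% of all miRNA reads. The count in Ago2ADH was higher by a log2 ratio of 1.05 (95% counting interval 0.999 to 1.10), a 2.07-fold difference. It ranked 47th among 695 miRNA arms by reads in Ago2ADH and 70th in wild type. Under the size rule applied to all arms (100 or more reads in both libraries together, a ratio of at least 2 or at most 0.5, and an interval that excludes 1), it was 1 of 20 arms called higher of 352 tested, a background of 5.68% higher and 6.53% in either direction. Its log2 ratio was the 16th highest. The rule had been used in choosing miR-210, so nothing is read from that call.

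The distance to the 2-fold limit was small, and the call depended on the scaling. Leaving miR-451 out of the total lowered each log2 ratio by 0.18, and the 352 arms had a median of 0.15. Relative to that median, miR-210-3p was higher by 0.90 (1.87-fold). With the total of miRNA reads without miR-451 the ratio was 1.83-fold (1.77 to 1.90), under the 2-fold limit, and with the total of all reads it was 2.24-fold (2.16 to 2.32). The ratio was above 1 under all of the scalings of the read total tried. Over all 352 arms, 20 were called higher and 3 lower with the total of miRNA reads, and 11 higher and 6 lower without miR-451 in it.

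**Figure D1:**
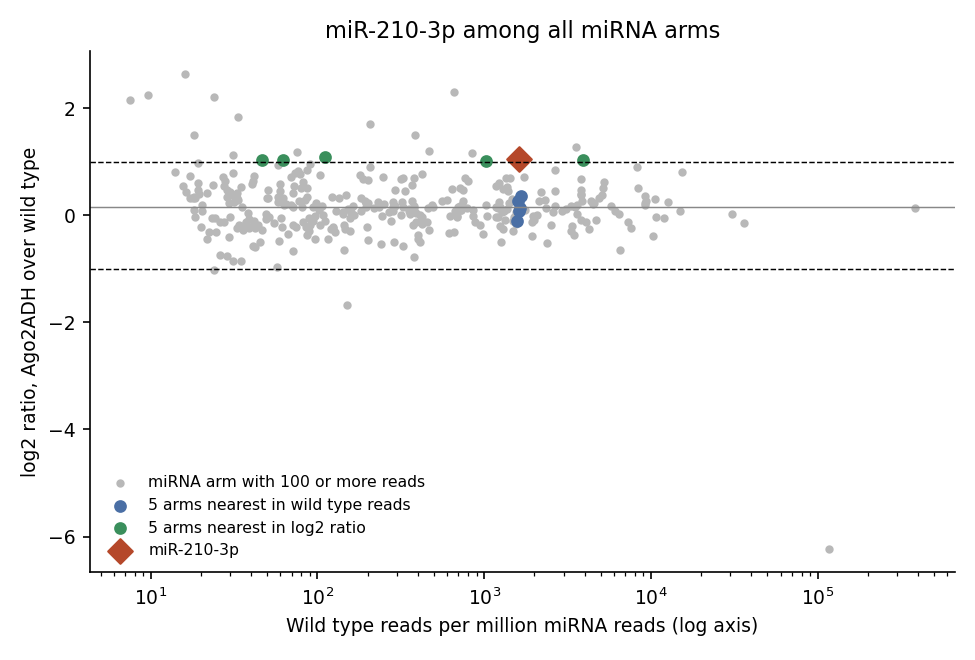
Each point is 1 of 352 miRNA arms with 100 or more reads; the x axis is the wild type level in RPM of miRNA reads (log axis) and the y axis the log2 ratio of Ago2ADH over wild type. Dashed lines mark 2-fold and the grey line the median of 0.15; miR-210-3p (diamond, 1.05) lies just above the upper dashed line, while the 5 arms of like abundance lie between -0.10 and 0.37.

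Since miR-210 was chosen by its ratio, arms of like abundance are given beside it as a description only. The 5 arms with the nearest wild type counts were miR-322-5p, miR-744-5p, miR-377-3p, miR-185-5p and miR-410-3p. Their log2 ratios lay between -0.10 (miR-410-3p, 4117 reads in Ago2ADH and 4411 in wild type) and 0.37 (miR-377-3p, 6029 and 4668 reads).

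The 5 arms with the nearest log2 ratios were of different abundance. miR-376a-3p, from the imprinted Dlk1-Dio3 cluster, had 8039 RPM in Ago2ADH and 3905 RPM in wild type, a log2 ratio of 1.04. miR-503-5p had 2086 and 1031 RPM (1.02), and miR-671-5p had 236 and 111.5 RPM (1.08). miR-101a-3p had 128 and 62.3 RPM (1.04), and miR-669b-5p, whose hairpin has near-identical copies, had 94.3 and 46.3 RPM (1.03). Likeness here is the difference in 1 ratio between 2 libraries.

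The minor strand showed no such difference within the precision that its few reads allow. miR-210-5p had 7 reads in Ago2ADH and 7 in wild type, a log2 ratio of -0.0015 with an interval from -1.74 to 1.74, which includes the value of the 3p strand. The 14 reads were of 5 sequences. The main one was the mature form shown above, with 4 reads in each library, and the next was aGCCACTGcccaccgcacactgc, which has 1 more templated base and had 2 reads in Ago2ADH and 1 in wild type. The other 3 had 1 read each, aGCCACTGcccaccgcacact in Ago2ADH, and cACTGCCCaccgcacactg and gCCACTGCccaccgcacactg in wild type. The 5p strand made up 0.0738% (0.0297 to 0.152) of hairpin reads in Ago2ADH and 0.153% (0.0615 to 0.315) in wild type. These intervals overlap. Among the 147 hairpins that had at least 1000 reads and both arms detected, the median share of the minor arm was 1.97% in Ago2ADH and 1.87% in wild type, and that of mir-210 was the 15th lowest in Ago2ADH and the 19th lowest in wild type. Sequences from the stretch between the strands alone were not found among the 50.

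Of the 45 distinct 3p sequences, 7 reached 1% of the arm in either library, and together they held 97.3% of its reads in Ago2ADH and 96.3% in wild type. They are shown as the reads were deposited, with the seed that each would have in capitals, because the start of the read sets the seed and its end sets the length.
Main read, 22 nt: cTGTGCGTgtgacagcggctga
1 base longer, 23 nt: cTGTGCGTgtgacagcggctgat
1 base shorter, 21 nt: cTGTGCGTgtgacagcggctg
Shorter form, 20 nt: cTGTGCGTgtgacagcggct
Short form, 16 nt: cTGTGCGTgtgacagc
Start 1 base earlier, 23 nt: aCTGTGCGtgtgacagcggctga
Start 1 base earlier, 22 nt: aCTGTGCGtgtgacagcggctg

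The main read had 7376 copies in Ago2ADH and 3464 in wild type (log2 ratio 1.09, interval 1.03 to 1.15). It is identical to the RefSeq mature strand. The form with 1 more templated base, a T in the reads, had 717 and 391 copies (0.87, interval 0.69 to 1.05), and the 21-nt form had 490 and 224 copies (1.13, interval 0.90 to 1.36). Across the 7 forms the log2 ratio ran from 0.62 for the 16-nt read (109 in Ago2ADH and 71 in wild type) to 1.21 for the 22-nt read with the early start (97 and 42). Each of the 7 forms was thus more abundant in Ago2ADH, and the interval of each includes the 1.05 of the arm as a whole.

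The 5′ end, which fixes the seed, was nearly the same in both genotypes. Reads starting at hairpin position 66 made up 93.8% (93.3 to 94.3) of 3p reads in Ago2ADH and 93.2% (92.5 to 94.0) in wild type. The other common start was 1 base earlier, at position 65, with 503 reads in Ago2ADH (5.31%, 4.86 to 5.78) and 247 in wild type (5.40%, 4.76 to 6.10). This start shifts the seed to CUGUGCG, which 0 of the mature miRNAs in the table carry. Starts at position 67 were the one start whose shares had intervals that do not overlap, with 35 reads in Ago2ADH (0.369%, 0.257 to 0.513) and 38 in wild type (0.831%, 0.589 to 1.14).

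Templated reads were a little more uniform in length in Ago2ADH. Reads of 22 nt were 78.9% (78.0 to 79.7) of the arm in Ago2ADH and 76.7% (75.5 to 77.9) in wild type, and the intervals do not overlap. Among reads of 20 to 24 nt alone they do, at 81.1% (80.2 to 81.9) and 79.4% (78.1 to 80.6). Reads of 23 nt were 11.1% (10.5 to 11.7) in Ago2ADH and 12.0% (11.04 to 12.9) in wild type, and reads of 21 nt 5.79% (5.33 to 6.28) and 6.32% (5.63 to 7.07), with overlapping intervals. Reads that began 1 base early more often ended 1 base early too. Among them 19.3% ended at position 86 in Ago2ADH and 17.004% in wild type, against 5.51% and 5.25% among reads from the main start. Short reads of 15 to 17 nt, below the 19 to 30 nt cut from the gel, numbered 174 in Ago2ADH (1.84%) and 103 in wild type (2.25%). Most of these ended at position 81, where 112 reads in Ago2ADH and 72 in wild type stopped, against 24 and 21 at position 82.

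**Figure D2:**
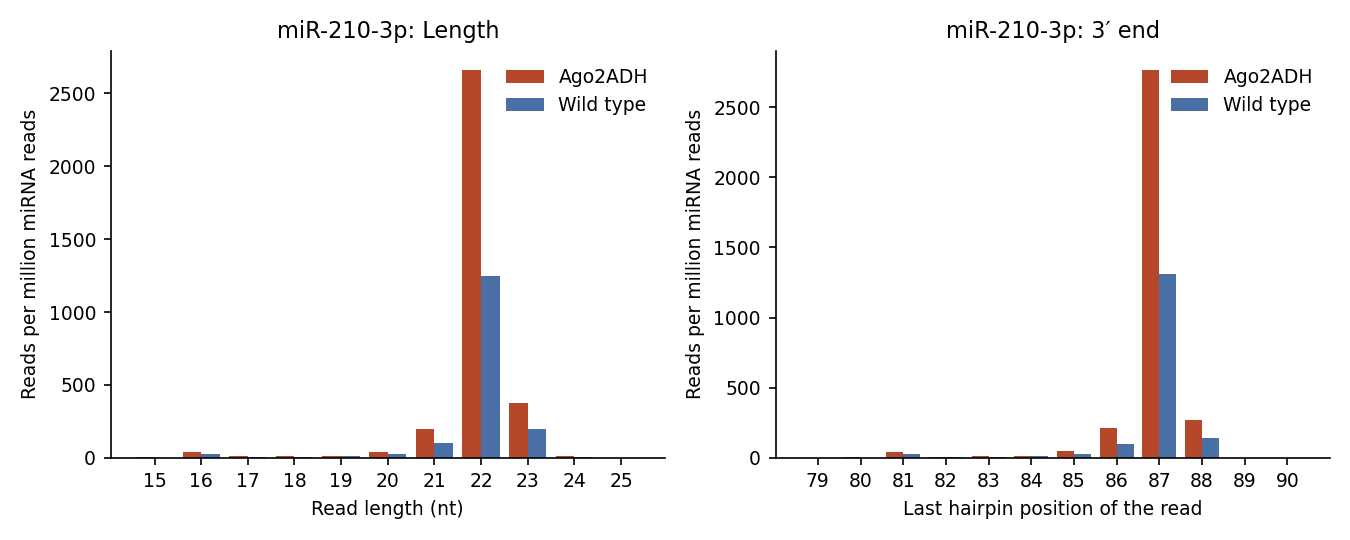
Templated miR-210-3p reads by length (left) and by the last hairpin position of the read (right), in RPM of miRNA reads, for Ago2ADH (left bar of each pair) and wild type (right bar). Both libraries peak at 22 nt and at position 87, with a minor peak at 16 nt and position 81.

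Many miR-210-3p reads ended in bases that the hairpin does not encode. As background, terminal nucleotidyltransferases are enzymes known to add A or U to miRNAs; their part in these reads was not tested. Such reads match the genome nowhere and are outside the authors' miRNA class, so the counts above leave them out. They were taken as reads that follow the hairpin for 18 or more bases from a 3p start and end in 1 to 3 bases that it lacks. There were 4344 of them in Ago2ADH and 2488 in wild type, in 214 sequences. The 3 most abundant are shown with the untemplated part in capitals.
1 A added to the main read: ctgtgcgtgtgacagcggctgaA
2 A added to the main read: ctgtgcgtgtgacagcggctgaAA
1 U (T in the reads) added to the 21-nt read: ctgtgcgtgtgacagcggctgT

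Untemplated bases were found on 31.4% (30.7 to 32.2) of miR-210-3p reads in Ago2ADH and 35.2% (34.1 to 36.4) in wild type, when such reads are added to the total. The median over the 192 arms with 500 or more reads in each library was 15.1% in Ago2ADH and 15.5% in wild type. miR-210-3p ranked 31st highest of them in Ago2ADH and 27th in wild type. With these reads included, the log2 ratio of miR-210-3p was 0.96 (0.92 to 1.003), under the 2-fold limit.

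Tails of A had a lower share in Ago2ADH. Tails of A alone were on 1775 reads in Ago2ADH (12.8%, 12.3 to 13.4) and 1214 in wild type (17.2%, 16.3 to 18.1), and neither interval reaches the other. The log2 ratio of these reads was 0.55 (0.44 to 0.65), beside 1.05 for the templated reads. By length, the log2 ratio was 0.54 for 1 A (872 reads in Ago2ADH and 598 in wild type), 0.62 for 2 A (779 and 508) and 0.20 for 3 A (124 and 108, interval -0.19 to 0.58). The difference in share was -4.35 percentage points, while the median over the 192 arms was -0.24 points. That of miR-210-3p was the 3rd lowest among them. The share of such tails was lower in Ago2ADH for 122 of the 192 arms and higher for 68. In wild type that of miR-210-3p was the 13th highest, beside a median of 5.83%. A difference in points can be larger where the starting share is larger, so the rank alone does not set miR-210-3p apart. Tails of 3 bases of any kind were also on a lower share of reads, 5.03% (4.67 to 5.41) in Ago2ADH and 6.42% (5.86 to 7.01) in wild type.

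Tails of U had no lower share in Ago2ADH. They were on 1032 reads in Ago2ADH (7.47%, 7.03 to 7.92) and 458 in wild type (6.49%, 5.92 to 7.09), shares whose intervals overlap, with a log2 ratio of 1.17 (1.01 to 1.33). The most frequent, 1 U after the 21-nt read, had 678 copies in Ago2ADH (4.90%, 4.55 to 5.28) and 279 in wild type (3.95%, 3.51 to 4.43). Its share was thus higher in Ago2ADH, and its log2 ratio of 1.28 (1.08 to 1.49) lies above the 1.05 of the templated reads. Reads with A followed by U had 487 and 228 copies (1.09), 1 added G had 121 and 43 (1.49), and 1 added C had 42 and 19 (1.14). A U added to the 22-nt read has the same sequence as the templated 23-nt read, and an A added to the 21-nt read is the main read itself, so both are missed by this count.

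**Figure D3:**
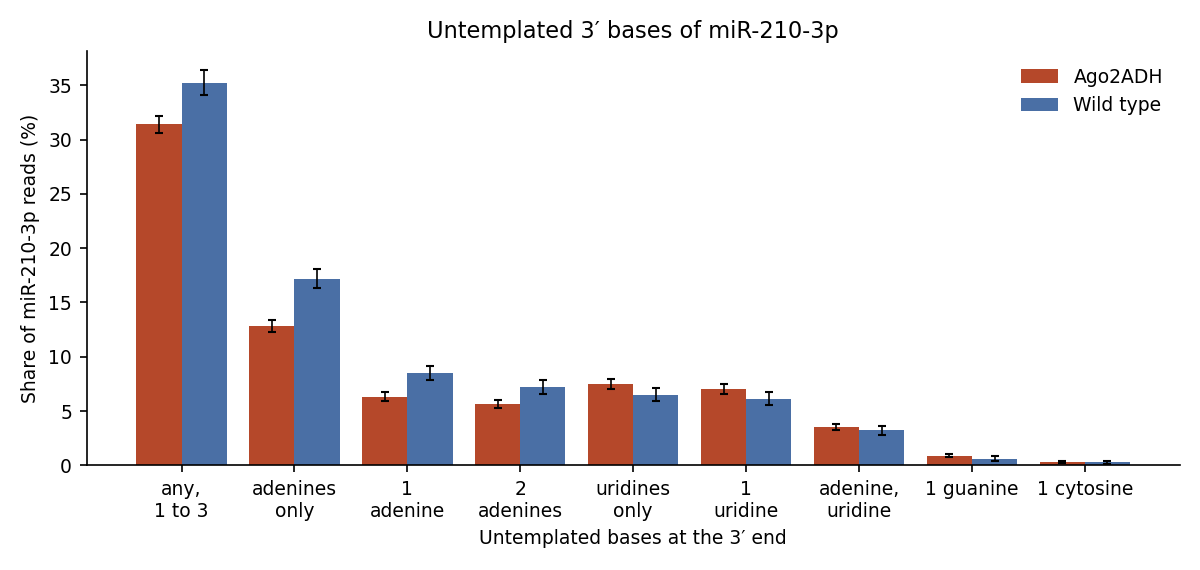
Share of miR-210-3p reads, in percent, that end in each kind of untemplated bases, for Ago2ADH (left bar) and wild type (right bar), with exact 95% binomial intervals. Tails of adenine alone are lower in Ago2ADH (12.8% against 17.2%), while those of uridine alone are 7.47% and 6.49%.

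As a gauge of base errors, substitutions within the main read were counted. The 22-nt reads with 1 substitution in the main read numbered 20 to 55 at each of positions 1 to 21 in Ago2ADH and 6 to 41 in wild type. Their median was 0.461% of the main read in Ago2ADH and 0.548% in wild type. At position 22, the last one, there were 770 in Ago2ADH (10.4%) and 317 in wild type (9.15%), mostly the U-ended read shown above. The 1 C and 1 G tails, with 42 and 121 reads in Ago2ADH and 19 and 43 in wild type, were nearer to the counts at single internal positions than those of A or U were.

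**Figure D4:**
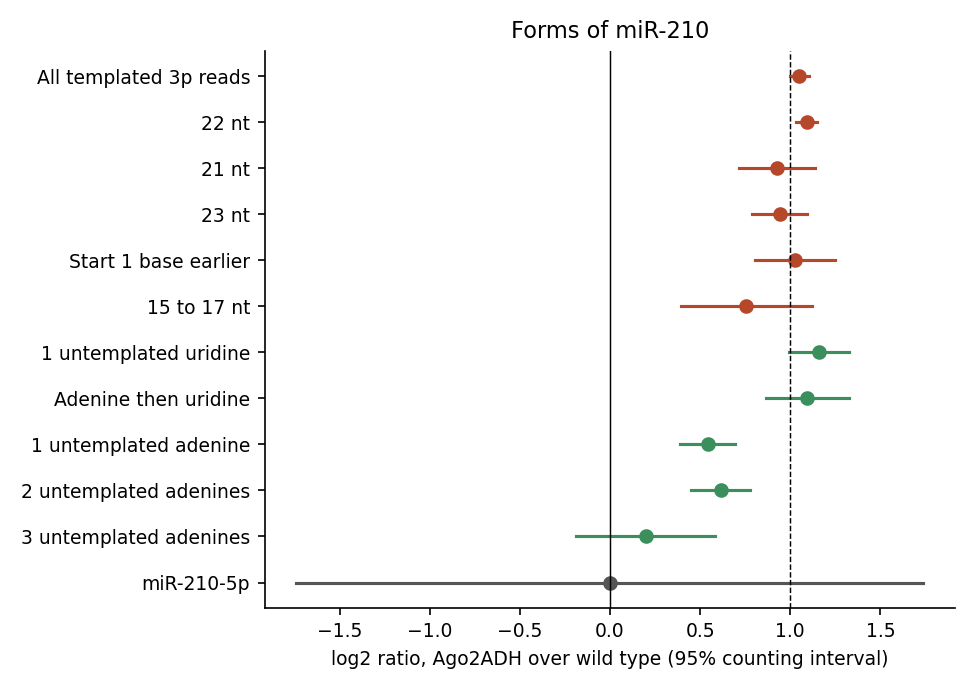
log2 ratio of Ago2ADH over wild type, scaled to miRNA reads, for the forms of miR-210, with 95% counting intervals; the dashed line marks 2-fold. Templated 3p forms lie between 0.75 and 1.09 and those ending in uridine at 1.09 and 1.16, those with only adenine between 0.20 and 0.62, and the interval of miR-210-5p spans -1.74 to 1.74.

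Other miRNAs on a list drawn up for erythroid cells lay on both sides of 0. The list also holds miR-223, a miRNA of white blood cells, so it does not describe erythroid cells alone. Of 24 arms tested from it, 3 were called higher and 1 lower, beside 5.68% and 0.852% of all arms. The higher ones were miR-486-3p at a log2 ratio of 2.30, miR-144-3p at 1.28 and miR-210-3p. The rule had been used in choosing miR-210, so nothing is read from its call here either. The lower one was miR-451-5p at -6.23. The partner strands miR-486-5p (-0.36) and miR-144-5p (-0.31) lay below 0, and miR-451-3p (0.09) within counting error of it. Beyond counting error, 6 arms of the list lay above 0 and 11 below, where 48.6% and 19.6% of all arms did so. The list median was -0.0990, or -0.104 without miR-210-3p, beside 0.15 over all arms. Fragments of erythroid marker mRNAs were lower in Ago2ADH, with a sum over 13 markers of 1214 in Ago2ADH and 1873 in wild type when scaled like RPM but to all reads. Of these, 7 lay below 0 beyond counting error and 1 above, where 5.95% and 6.21% of all 9550 mRNAs with 20 or more reads did so. All mRNAs were not matched to the markers for read depth, on which such a count depends. Markers of other cell types also differed. Of 13 hepatocyte markers 8 lay below 0 and 3 above (median -0.0664), their sum being 14093 in Ago2ADH and 13912 in wild type. Alb, with 36365 and 40362 reads, counted as below at a log2 ratio of only -0.04. Of 7 endothelial and stellate markers with 20 or more reads 2 lay below and 0 above (median -0.58). The sums over all 8 listed were 21.998 and 31.4. Of 6 white cell markers 1 lay below and 0 above (median -0.0386). Among the erythroid markers, alpha globin Hba-a2 had 5225 and 9129 reads, Hbb-b2 had 2106 and 3413, and the anion exchanger Slc4a1 had 392 and 645. By the 2-fold rule 1 of the 13 was called lower, Spna1 with 50 and 125 reads (-1.21), and 0 higher. Of all mRNAs 1.99% were called lower and 1.8% higher. Ank1, with 193 and 230 reads (-0.14), lay within counting error of 0. The marker above 0 was Tfrc, with 229 and 178 reads (0.47). Fewer erythroid cells and less RNA per cell cannot be told apart here, and the part of these marker differences in the miR-210 level was not tested.

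miRNAs reported to respond to low oxygen also lay on both sides of 0. Of 29 arms tested on such a list, 2 were called higher, miR-21-3p and the chosen miR-210-3p, and 0 lower, beside 5.68% and 0.852% of all arms, so the share called higher was near that of all arms. miR-21-3p, the minor strand of a miRNA common in liver, had 334 reads in Ago2ADH and 94 in wild type (log2 ratio 1.83). miR-21-5p stood at 0.80, with 75657 and 43320 reads. Beyond counting error, 13 arms of the list lay above 0 and 7 below, where 48.6% and 19.6% of all arms did so. The list median was 0.0766, or 0.0480 without miR-210-3p, beside 0.15 over all arms. It turned negative under scalings that discount miR-451, which shift every arm by the same amount. miR-107-3p and miR-103-3p, a pair with one seed, were at -0.0937 and -0.0495.

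Short fragments of mRNAs induced by low oxygen, scaled to all reads, were mostly higher in Ago2ADH. Fragments of this kind follow mRNA breakdown as well as mRNA level, so a higher level of the mRNAs themselves is not shown. Of 38 genes with 20 or more reads, 25 lay above 0 beyond counting error and 2 below. Of all mRNAs 6.21% and 5.95% did so, but these were not matched for read depth, on which such a count depends. Of the 38 genes, 34 had 50 or more reads. The list was chosen with earlier results of these data known. The median log2 ratio of the 38 genes was 0.60, beside -0.0063 over all 9550 mRNAs. The 95% interval of this median, taken from the ranked values of the genes, was 0.30 to 0.80. It measures spread between genes that share the same libraries, and is no test between genotypes. By the 2-fold rule 6 were higher and 1 lower, against 1.8% and 1.99% of all mRNAs (3.79% in either direction).

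Among the genes called higher were the collagen-modifying enzymes Plod2, with 45 reads in Ago2ADH and 9 in wild type (log2 ratio 2.43), and P4ha2, with 25 and 9 reads (1.58). The oxygen-sensing hydroxylase Egln3 had 142 and 68 reads (1.17), the mTORC1 inhibitor Ddit4 had 42 and 20 (1.18), and Ankrd37 had 32 and 17 (1.02). Slc2a3, a glucose transporter, was the gene called lower, with 9 and 27 reads (-1.48).

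The most abundant members differed less. Transferrin (Trf), which is also a main hepatocyte product, had 25315 reads in Ago2ADH and 21899 in wild type (0.32), and the growth factor binding protein Igfbp1 had 974 and 686 (0.61). Lactate dehydrogenase Ldha had 601 and 543 (0.26), and Ndrg1, a stress-responsive gene, had 606 and 376 (0.80). The erythropoietin gene Epo had 2 and 0 reads, too few for a comparison.

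The oxygen-sensing factors themselves numbered 10 genes, whose median log2 ratio was 0.30. The interval of this median over genes, -0.198 to 0.93, includes 0, and it too is no test between genotypes. Beyond counting error 4 lay above 0 (Egln3, Hif1an, Egln1 and Epas1) and 0 below, where 6.21% and 5.95% of all mRNAs did so. All mRNAs were again not matched for read depth. Egln3 was the 1 factor past 2-fold, where 1.8% of all mRNAs were called higher. Egln3 and Egln1 are on the hypoxia-induced list as well. Hif1an had 46 reads in Ago2ADH and 26 in wild type (0.93, interval 0.21 to 1.69). Egln1 had 100 and 79 reads (0.45, interval 0.009 to 0.89). The hypoxia-inducible factor subunit Epas1 had 140 reads in Ago2ADH and 111 in wild type (0.44, interval 0.07 to 0.82). The subunit Hif1a had 57 and 54 reads (0.19, interval -0.38 to 0.75). The coactivators Crebbp (160 and 198 reads) and Ep300 (117 and 104) lay within counting error of 0. The genes next to Mir210 did not differ beyond counting error either, Phrf1 with 45 and 50 reads and Rassf7 with 13 and 16.

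Fragments of known miR-210 targets centred near 0. Of 28 targets listed, 22 had 20 or more reads, and their median log2 ratio was 0.0645 (interval of the median over genes -0.0385 to 0.55). By the 2-fold rule 0 were called, where 1.8% of all mRNAs were called higher and 1.99% lower. Beyond counting error 3 lay above 0 (Tfrc, Pim1 and Aifm3) and 0 below, where 6.21% and 5.95% of all mRNAs did so, with no matching for read depth. Tfrc is also on the hypoxia-induced list and among the erythroid markers, so the same reads count in each. The chaperone P4hb had 529 reads in Ago2ADH and 586 in wild type (-0.0385), the transcription factor Tcf7l2 235 and 251 (0.01), the transferrin receptor Tfrc 229 and 178 (0.47) and the import receptor Tnpo1 157 and 156 (0.12). Iscu had 15 and 8 reads, a log2 ratio of 1.02 whose interval runs from -0.31 to 2.46. Efna3 had only 6 and 3 reads. Fragments of 15 to 34 nt follow mRNA breakdown as well as mRNA level, so repression of a target need not show in them.

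**Figure D5:**
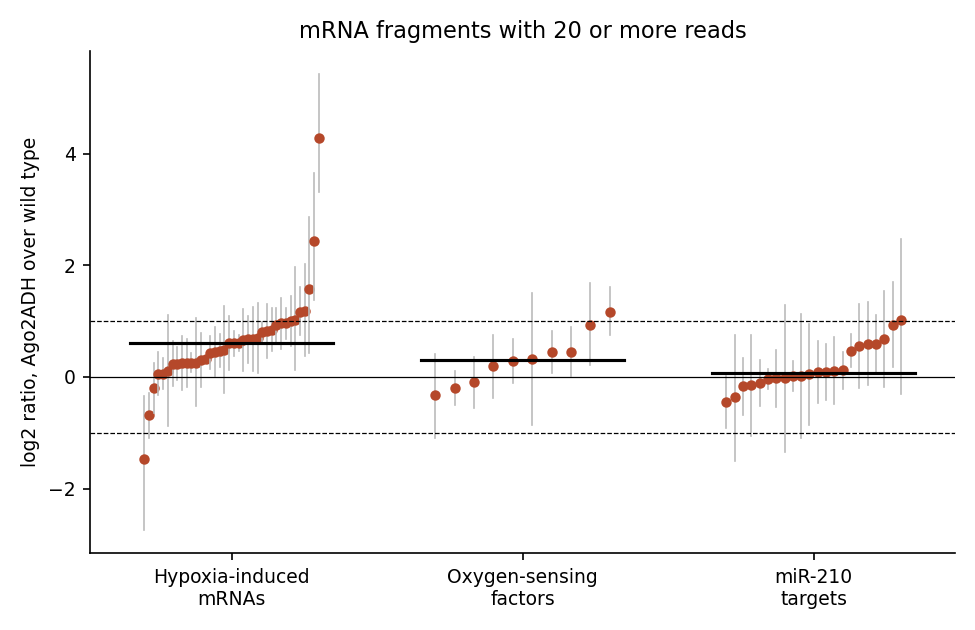
log2 ratio of Ago2ADH over wild type for mRNA fragments scaled to all reads, 1 point per gene with 20 or more reads and its 95% counting interval, in 3 lists; black bars are list medians and dashed lines 2-fold. The hypoxia-induced mRNAs lie mostly above 0 (median 0.60), while the miR-210 targets centre near 0 (median 0.0645).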

How the data were processed

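Per the labels' protocols, total RNA of fetal liver was cut from a gel at 19 to 30 nt and given adapters. Libraries made by RT-PCR were read on an Illumina GA2. The authors deposited raw read counts per distinct sequence and library, each sequence with its number of genome matches (a count as well, per the file headers), 1 class and 1 name. No source used here gives the aligner, the adapter trimming or the genome build. The deposited sequences are 15 to 34 nt long.

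Reads of the miRNA class were placed by exact match on GENCODE M21 hairpins (99.9% of reads in Ago2ADH, 99.8% in wild type), and the arm was set by the side of the hairpin that held the middle of the read. Of miR-210 reads, 99.7% in Ago2ADH and 99.8% in wild type match the genome once. Mature and hairpin sequences are from RefSeq (GRCm38.p6) and the fold from RNAfold 2.7.2 at 37 °C. Ratios have exact conditional binomial and shares exact Clopper-Pearson 95% intervals. PCR copies carry no molecular identifier, so these intervals cover counting error only. The 95% intervals of list medians come from the ranked values of the list members. They measure spread between members of the same libraries, not counting error or spread between animals. Work was done in Python 3.11.15 (pandas 2.3.3, scipy 1.17.1). Other scalings, read minimums, fold limits and read sets were tried as alternatives. mRNA fragments are reads of the RefSeq class summed per symbol; no source used here gives their strand.

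The miRNA and all lists were chosen with earlier results of these data known; lists came from general knowledge. Named were read sequences from 1% of an arm, the 5 arms nearest in ratio and in wild type count, and list members called by the size rule. Of the hypoxia-induced, oxygen-sensing and target mRNA lists and the erythroid markers, the 4 with most reads and those past 2-fold were named. Markers of the other cell types were given as counts, and Alb was named for liver identity. Hif1a, Hif1an, Egln1, Epo, Efna3, miR-21-5p, miR-103-3p, miR-107-3p, miR-486-5p, miR-144-5p, miR-451-3p, Pim1, Aifm3, Rassf7 and Phrf1 were added after their values were seen. One gene that the rule would name is not reported here.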

Additional observations from a re-analysis of the deposited data

How the results depend on the processing

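The log2 ratio of miR-210-3p was above 0 under each alternative run, but its interval included 0 by distinct sequences, and many values were under the 2-fold limit. Its log2 ratio was 0.90 with median-of-ratios scaling, 0.91 with TMM (edgeR 4.0.16), 0.87 without miR-451 in the total, 0.85 without the 10 most abundant arms of either library, 0.99 with reads of 20 to 24 nt, 0.96 with untemplated bases added and 0.44 (interval -0.27 to 1.16) by distinct sequences. At 1.05 it also misses a limit of 3-fold. Shares moved with the reads counted. With reads of 20 to 24 nt, the 22-nt share was 81.1% in Ago2ADH and 79.4% in wild type, and the share ending at position 87 was 83.97% and 82.7%. With untemplated bases added, the 22-nt share was 60.7% and 55.1%, the share ending at 87 was 74.3% and 74.8%, so that its order turned round (the cause was not tested), and the share with the main start in Ago2ADH was 92.8%. Counting tails of 1 base alone gave 17.5% and 19.3%. The erythroid list median was -0.249, -0.235, -0.275 and -0.302 under the first 4 scalings named, and that of the hypoxia-responsive miRNAs -0.0733, -0.0597, -0.0997 and -0.127. The median over all arms was -1.04e-07, 0.0136, -0.0264 and -0.0534 under the same scalings. A change of total shifts every arm by the same amount, so these moves say nothing about the lists. For the 5p ratio and the 5p share, no alternative left the counting interval. For the mRNA list medians, none left the interval of the median over genes. Read minimums of 50 and 500 did not change the call of miR-210-3p. Over all arms, 20 were called higher and 3 lower as reported, 25 and 2 with all reads, 13 and 5 with median-of-ratios, 13 and 4 with TMM, 11 and 6 without miR-451, 10 and 6 without the 10 most abundant, and 0 by distinct sequences. Depth limits the 5p strand (14 reads) and mRNAs with few reads. No paired analysis was possible because each genotype has 1 library.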
